A study of Homo sapiens with 4 samples.

Results

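The 46 genes described here encode proteins that copy DNA or prepare the cell for S phase: origin licensing and firing factors, DNA polymerases, the sliding clamp and its loader, enzymes of nucleotide supply, histone supply factors and regulators of the passage from G1 into S phase. They were chosen by name, with earlier results of these data known and with the MCM helicase genes left out. Each matched 1 row of the 67062 in the count table. All 46 passed the filter on low counts, among 15918 tested genes, and the lowest count of any of them in any library was 259. The cells were OCI-AML3, an established line from a human acute myeloid leukaemia whose mutant NPM1 protein sits in the cytoplasm (NPM1c+). PIG-LONA cells had received the pMSCV-PIG retrovirus with the whole LONA long noncoding RNA placed behind its RNA polymerase II promoter, and PIG-EMPTY cells the same virus without LONA. Cells of both groups carried the puromycin resistance and GFP genes of the vector and were sorted as GFP+. There were 2 independent transductions and so 2 libraries per group. LONA was thus read from a viral vector in 1 cell line, and its own level was not analysed here.

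Total counts ran from 29819572 to 38358442 per library. Levels are in CPM, counts scaled to a common library total after TMM normalisation. Of the 8 markers of the line, CD33, CEBPA, HOXA9, MEIS1 and PTPRC were expressed in every library and did not pass the test. LYZ and SPI1 fell, with log2 fold changes of PIG-LONA over PIG-EMPTY (± SE) of -0.70 ± 0.12 and -0.13 ± 0.04. LYZ had 52.9 and 34.2 CPM in the PIG-EMPTY libraries, against 26.0 and 27.1 CPM in the PIG-LONA libraries. The log2 fold change was positive for 0 of the 8 markers. The 4 T cell and 4 erythroid markers had 0 counts in every library. The 4 B cell markers summed to 0.910 to 1.10 CPM in PIG-LONA and 0.873 to 0.954 CPM in PIG-EMPTY libraries, with MS4A1 at 0. The 4 epithelial and stromal markers summed to 0.601 to 0.936 CPM in PIG-LONA and 0.537 to 0.554 CPM in PIG-EMPTY libraries, with EPCAM at 0. In neither of these lists did a tested gene pass. MPO was low, at 2.44 CPM in PIG-LONA and 2.69 CPM in PIG-EMPTY cells. The 799 tested genes of chromosome 6 had a median log2 fold change of 0.17 for PIG-LONA over PIG-EMPTY, against -0.0036 for genes elsewhere. GMNN and PRIM2 lie on chromosome 6.

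Before S phase, the origin recognition complex, CDC6 and CDT1 load the MCM helicase on DNA, and geminin (GMNN) keeps CDT1 from loading it again in the same cycle. CDC45 and the GINS complex then turn the helicase on, DNA polymerase alpha with primase starts new strands, and polymerases delta and epsilon extend them on the PCNA clamp that replication factor C loads. Most of these genes are transcribed as cells pass from G1 into S phase, under E2F transcription factors, and they are commonly read as a sign of dividing cells. Myeloid progenitors usually stop dividing as they mature into monocytes or neutrophils.

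The series asked what raised LONA does to the maturation of these cells. Replication genes were slightly higher in PIG-LONA cells. Of the 46 genes, 14 rose (30.4%), 0 fell and 32 did not pass the threshold of adjusted p under 0.05 (edgeR quasi-likelihood test, Benjamini-Hochberg adjustment over all tested genes). Among all tested genes 6.44% passed, 2.93% higher and 3.51% lower. Of genes within the range of mean levels of the 46, 4.47% were higher. Off chromosome 6, 12 of the 44 genes were higher, beside 1.59% of all genes there. As the 46 genes were chosen with earlier results known, these shares are a description. The genes that rose were GMNN, GINS3, PRIM2, POLD3, POLA1, POLE, RFC2, PCNA, RRM2, TYMS, CHAF1B, E2F2, MSH6 and UNG. At an unadjusted p under 0.05, 26 were higher and 0 lower, beside 9.23% of all tested genes higher and 9.43% lower. The Wald test of DESeq2 called 5 higher (GMNN, PCNA, RRM2, CHAF1B and MSH6) and 0 lower, beside 1.38% of all tested genes higher. The count in limma-voom was 14 higher and 0 lower, beside 2.85% higher.

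The differences were small. As log2 CPM minus the PIG-EMPTY mean, their median over the 46 genes was 0.111 in each PIG-LONA library. For single genes PIG-LONA replicates 1 and 2 could be close, as for RRM2 (0.262 and 0.254). They could also be apart, as for GINS2 (0.206 and 0.040) and POLA2 (0.035 and -0.185). Summed over the 46 genes, the level was 4487 and 4441 CPM in the PIG-LONA libraries, against 4173 and 4093 CPM in the PIG-EMPTY libraries, a mean difference of 8.01%. Both PIG-LONA sums were above both PIG-EMPTY sums. The median log2 fold change over the 46 genes was 0.11 (1.08-fold), beside 0.00106 over all tested genes. The largest was 1.27-fold, and 3 of the 14 genes that rose did so by at least 1.2-fold. The fitted log2 fold change was positive for 43 of 46 genes, beside 50.4% of all tested genes. Both PIG-LONA libraries lay above both PIG-EMPTY libraries for 34 genes, the groups overlapped for 12 and for 0 genes did both lie below. Among all tested genes the groups did not overlap for 48%, with PIG-LONA above for 23.7% and below for 24.4%.

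**Figure D1:**
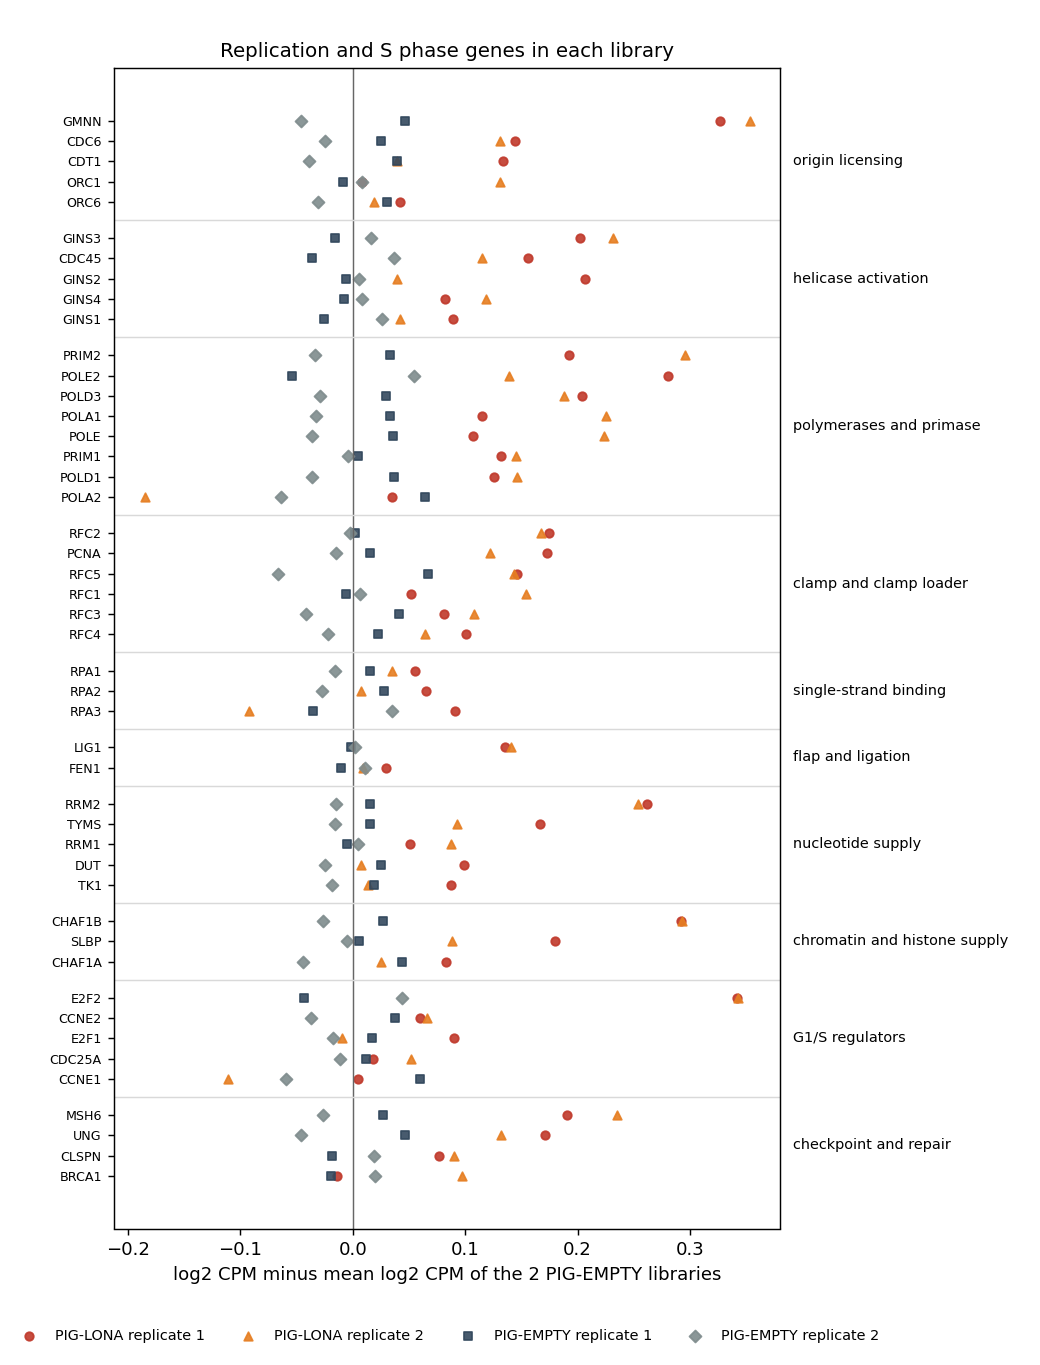
Level of each of the 46 genes in each library, as log2 CPM minus the mean log2 CPM of the 2 PIG-EMPTY libraries, with genes grouped by role and 1 point per library. For 34 of 46 genes both PIG-LONA points lie to the right of both PIG-EMPTY points.

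The gap between libraries of a group was smaller than these differences for the typical gene. The median gap between replicates was 0.040 on the log2 scale for the PIG-LONA pair and 0.051 for the PIG-EMPTY pair, against the median difference of 0.11 between groups. Many genes lay close to the threshold, and 6 of the 32 that did not pass had an adjusted p from 0.05 to 0.10. They were POLD1, SLBP, LIG1, CDC6, POLE2 and CDC45. Fewer of the 46 genes rose when either PIG-EMPTY library was left out, and more when either PIG-LONA library was. The count of higher genes over all tested genes moved in the same way. The median log2 fold change over the 46 genes stayed between 0.10 and 0.12 in these fits. With all libraries and no low-count filter 4 of the 46 genes rose, beside 140 of 29600 genes.

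Monocyte and macrophage markers moved in the opposite direction in the same libraries. Of 16 such markers 14 were tested, and 12 fell and 0 rose (0 higher at an unadjusted p under 0.05, by DESeq2 or by limma-voom). Over all tested genes 3.51% fell and 2.93% rose. Their summed level was 469 and 484 CPM in the PIG-LONA libraries, against 673 and 698 CPM in the PIG-EMPTY libraries. No marker of this list was at 0 in every library, although CD68 and MRC1 were too low to be tested. In RNA of a whole culture, a change in the share of cells in S phase cannot be told apart from a change in transcript level per cell. The part of the falling markers in the result for replication genes was not tested.

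Promoter sequences are shown for the genes that rose and whose E2F-like match lies wholly within 150 bases before their start, and for RRM2 and GMNN, which passed the threshold in every fit that tested them. Each run is the last 150 bases before the RefSeq gene start on GRCh38.p14, 5′ to 3′ on the strand of the gene. RefSeq and GENCODE place some of these starts differently, and the gene spans given with the values are GENCODE's. Capitals mark the E2F-like letters TTTNNCGC or TTCCCGC (N is any base) and the CCAAT box, each on either strand. The regions are chr1:23531234-23531383 (- strand) for E2F2, chr20:5126623-5126772 (- strand) for PCNA, chrX:24693768-24693917 (+ strand) for POLA1 and chr12:132687343-132687492 (- strand) for POLE. Those of the other genes are chr18:657503-657652 (+ strand) for TYMS, chr2:10122589-10122738 (+ strand) for RRM2 and chr6:24774787-24774936 (+ strand) for GMNN.
E2F2: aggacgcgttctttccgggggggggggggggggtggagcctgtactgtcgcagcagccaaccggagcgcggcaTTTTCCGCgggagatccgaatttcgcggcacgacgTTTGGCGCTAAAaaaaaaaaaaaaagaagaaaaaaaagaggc
PCNA: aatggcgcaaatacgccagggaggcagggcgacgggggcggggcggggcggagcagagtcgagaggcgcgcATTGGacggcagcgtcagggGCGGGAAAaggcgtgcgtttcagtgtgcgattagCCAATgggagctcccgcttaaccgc
POLA1: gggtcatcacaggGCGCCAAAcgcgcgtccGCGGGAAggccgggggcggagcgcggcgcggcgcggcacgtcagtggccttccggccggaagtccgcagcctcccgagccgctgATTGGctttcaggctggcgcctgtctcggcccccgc
POLE: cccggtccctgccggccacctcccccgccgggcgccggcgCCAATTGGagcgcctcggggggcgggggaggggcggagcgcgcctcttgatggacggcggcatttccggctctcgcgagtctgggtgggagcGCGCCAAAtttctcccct
TYMS: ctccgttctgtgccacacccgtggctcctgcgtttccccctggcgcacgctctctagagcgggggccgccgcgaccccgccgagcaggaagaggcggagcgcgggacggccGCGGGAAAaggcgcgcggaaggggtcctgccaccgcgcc
RRM2: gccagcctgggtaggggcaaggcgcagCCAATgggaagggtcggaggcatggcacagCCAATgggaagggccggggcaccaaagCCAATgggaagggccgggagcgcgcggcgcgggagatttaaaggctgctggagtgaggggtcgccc
GMNN: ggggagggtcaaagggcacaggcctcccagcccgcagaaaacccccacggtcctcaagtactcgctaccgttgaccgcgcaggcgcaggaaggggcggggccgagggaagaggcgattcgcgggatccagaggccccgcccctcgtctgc

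E2F2 held 3 matches to the 8-letter pattern, of which the last pair overlap, and PCNA and TYMS held 1 match that fits both patterns. POLA1 held 1 match of each pattern at separate places, and POLE held 1 of the 8-letter pattern and a pair of CCAAT boxes that overlap on opposite strands. TTTCCCGC holds both patterns. RRM2 had 3 CCAAT boxes and no E2F-like match in this stretch, and GMNN had neither. Promoter windows of 300 bases (250 before to 50 after the start) were found for 41 of the 46 genes. An E2F-like match of either pattern lay in 27 of these 41 windows (65.9%), beside 17.4% of 10724 windows of tested genes and 11.4% of 27305 windows in all. It lay in 9 of 13 windows of genes that rose and 18 of 28 windows of genes that did not pass, a difference that was not tested. CCAAT on either strand was in 21 of the 41 windows (51.2%), beside 36.6% of windows of tested genes and 35.7% of all windows, and the letters TTTGAA, the core of the element known from G2 and M phase genes, were in 1 of the 41, beside 9.87% of windows of tested genes and 15.4% of all windows. A match of these letters is a description and does not show that a factor binds there.

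Among the 5 origin licensing genes, GMNN rose and ORC1, ORC6, CDC6 and CDT1 did not pass the threshold. Of all tested genes 2.93% rose. GMNN (chromosome 6, 24774931 to 24786099, GRCh38), the inhibitor of CDT1, had 61.8 and 63.0 CPM in the PIG-LONA libraries, against 50.9 and 47.8 CPM in the PIG-EMPTY libraries. Both PIG-LONA values were above both PIG-EMPTY values, and the log2 fold change was 0.34 ± 0.05 (SE; edgeR adjusted p = 0.000174). GMNN had the largest log2 fold change of the 46 genes, but 106 of the 799 tested genes of chromosome 6 had a larger one. After subtracting each library's chromosome 6 median, GMNN was at 0.17 (edgeR adjusted p = 0.046). CDT1, the loader that geminin binds, had 94.4 ± 4.34 CPM in PIG-LONA cells and 88.9 ± 3.44 CPM in PIG-EMPTY cells (SD, n = 2 each), a log2 fold change of 0.09 ± 0.05. CDC6, an ATPase that joins the origin complex, was at 0.14 ± 0.04 (edgeR adjusted p = 0.0657), ORC1 at 0.07 ± 0.05 and ORC6 at 0.03 ± 0.04.

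GINS3 rose among the 5 helicase activation genes, and the other 4 were all above the PIG-EMPTY libraries in both PIG-LONA libraries without passing. Among all tested genes 23.7% lay above in this way and 2.93% passed as higher. GINS3, a subunit of the GINS ring (chromosome 16, 58295080 to 58406144), had 34.9 and 35.6 CPM in the PIG-LONA libraries, against 29.99 and 30.7 CPM in the PIG-EMPTY libraries. The groups did not overlap and the log2 fold change was 0.22 ± 0.06 (edgeR adjusted p = 0.0223), with 0.20 to 0.23 when each library was left out in turn. It did not pass without either PIG-EMPTY library. GINS1 was at 0.06 ± 0.04, GINS2 at 0.12 ± 0.06, GINS4 at 0.10 ± 0.04 and CDC45, the partner of GINS in the active helicase, at 0.13 ± 0.04 (edgeR adjusted p = 0.0838). Per kilobase of annotated exon, the 4 GINS levels ranked GINS1 (20.7 in PIG-LONA and 19.8 in PIG-EMPTY cells), GINS4 (13.8 in PIG-LONA and 12.8 in PIG-EMPTY cells), GINS2 (13.6 in PIG-LONA and 12.5 in PIG-EMPTY cells) and GINS3 (6.90 in PIG-LONA and 5.94 in PIG-EMPTY cells), all in CPM per kilobase. GINS2 and GINS4 lay within 1 CPM per kilobase of each other in both groups, and GINS3, which rose, had the lowest level on this measure. The exon length covers all annotated transcripts of a gene, so the ranking depends on the annotation. On the opposite strand GINS4 shares 21.2% of its exon bases with AC009630.2, and GINS3 shares 10.9% with AC009118.2.

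Of the 8 polymerase and primase genes 4 rose, beside 2.93% of all tested genes. They were POLE, POLD3, POLA1 and PRIM2. The count was 0 by DESeq2, beside 1.38% of all tested genes, and 0 with no low-count filter, beside 140 of 29600 genes. It was 2 with the chromosome 6 shift removed, beside 223 of 15918 genes. It was lower when either PIG-EMPTY library was left out, as was the count over all tested genes. Over the 8 genes their median log2 fold change was 0.17, and their summed level was 499 and 515 CPM in the PIG-LONA libraries, against 463 and 444 CPM in the PIG-EMPTY libraries. POLE, the catalytic subunit of the leading-strand polymerase epsilon (chromosome 12, 132623753 to 132687365), had 160.0 and 174 CPM in the PIG-LONA libraries, against 152 and 145 CPM in the PIG-EMPTY libraries. The groups did not overlap, although the PIG-LONA replicates differed from each other by more than the PIG-EMPTY replicates, and the log2 fold change was 0.17 ± 0.04 (edgeR adjusted p = 0.0219). Its partner subunit POLE2 was at 0.20 ± 0.07 with a larger error and did not pass (edgeR adjusted p = 0.0773). POLD3, an accessory subunit of the lagging-strand polymerase delta (chromosome 11, 74493851 to 74669117), had 58.3 and 57.7 CPM in the PIG-LONA libraries, against 51.6 and 49.6 CPM in the PIG-EMPTY libraries. Its replicates were close and the log2 fold change was 0.20 ± 0.05 (edgeR adjusted p = 0.0159). The catalytic subunit POLD1 was at 0.14 ± 0.04, just outside the threshold (edgeR adjusted p = 0.0526).

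The 4 genes of the polymerase alpha and primase complex, which lays down RNA-DNA primers, differed among themselves. POLA1, its polymerase subunit (chromosome X, 24693919 to 24996986), had 54.8 and 59.1 CPM in the PIG-LONA libraries, against 51.7 and 49.4 CPM in the PIG-EMPTY libraries. The groups did not overlap and the log2 fold change was 0.17 ± 0.05, just inside the threshold (edgeR adjusted p = 0.0486). PRIM2, the large primase subunit (chromosome 6, 57314805 to 57646849), had 27.3 and 29.3 CPM in the PIG-LONA libraries, against 24.4 and 23.3 CPM in the PIG-EMPTY libraries, a log2 fold change of 0.25 ± 0.06 (edgeR adjusted p = 0.0209). With the chromosome 6 shift removed PRIM2 was past the threshold no longer, at 0.076 (edgeR adjusted p = 0.593), and 225 of the 799 tested genes of that chromosome lay above it. PRIM1, the catalytic primase subunit, was at 0.14 ± 0.06 (edgeR adjusted p = 0.247). POLA2, the regulatory subunit, had 15.3 and 13.1 CPM in the PIG-LONA libraries, against 15.6 and 14.3 CPM in the PIG-EMPTY libraries. It had the lowest log2 fold change of the 46 genes, -0.08 ± 0.09 (edgeR adjusted p = 0.696), with overlapping groups, and its sign changed when PIG-LONA replicate 2 was left out, to 0.0375. POLA1 was lost without either PIG-EMPTY library, when PIG-LONA replicate 2 was left out, in limma-voom and DESeq2, with plain library totals and in both fits that treat chromosome 6 apart, and its log2 fold change over the fits that left out a library was 0.12 to 0.23. POLD3 did not pass without either PIG-EMPTY library, POLE and PRIM2 not without PIG-EMPTY replicate 2, and PRIM2 not without PIG-LONA replicate 2.

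**Figure D2:**
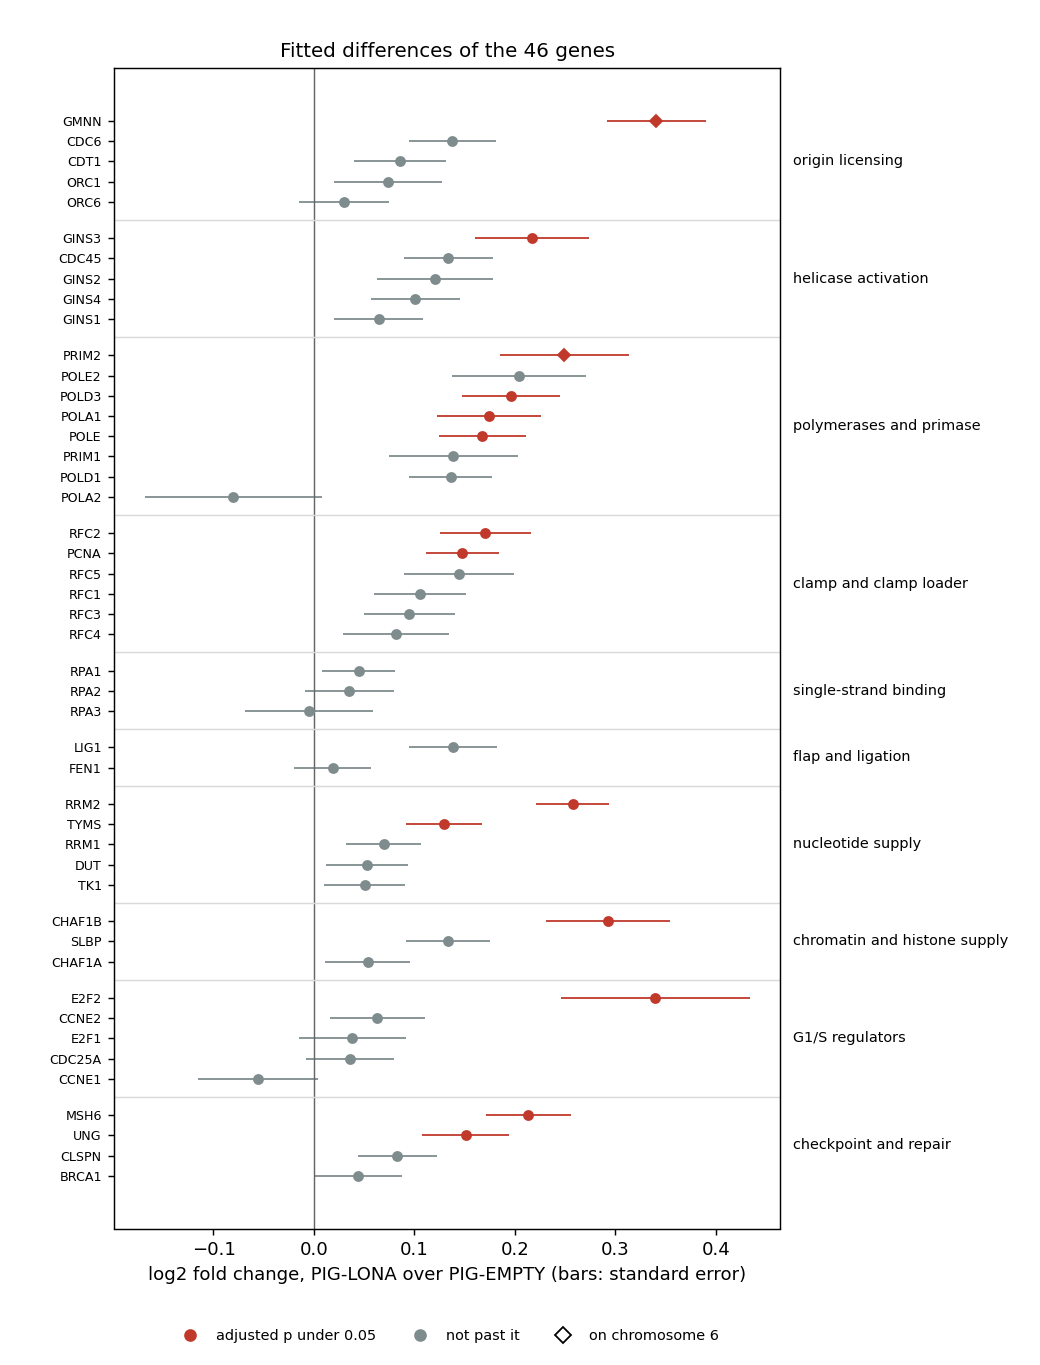
Fitted log2 fold change of PIG-LONA over PIG-EMPTY for each of the 46 genes with its standard error, grouped by role, red where adjusted p was under 0.05 and diamonds for the 2 genes on chromosome 6. The 14 red points lie between 0.13 and 0.34, and 3 grey points lie left of 0.

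All 6 genes of the sliding clamp and its loader were above the PIG-EMPTY libraries in both PIG-LONA libraries, beside 23.7% of all tested genes. Of the 6, PCNA and RFC2 rose, beside 2.93% of all tested genes. PCNA, the ring that holds the polymerases on DNA (chromosome 20, 5114953 to 5126626), had 296 and 286 CPM in the PIG-LONA libraries, against 266 and 260.3 CPM in the PIG-EMPTY libraries. The log2 fold change was 0.15 ± 0.04 (edgeR adjusted p = 0.0153), and its promoter stretch above holds an E2F-like match between CCAAT boxes. RFC2, a small subunit of the loader (chromosome 7, 74231499 to 74254458), had 67.5 and 67.1 CPM in the PIG-LONA libraries, against 59.9 and 59.7 CPM in the PIG-EMPTY libraries. The replicates of each group differed by less than 1 CPM and the log2 fold change was 0.17 ± 0.05 (edgeR adjusted p = 0.0263). The other loader subunits were at 0.11 ± 0.05 (RFC1, the large subunit), 0.09 ± 0.05 (RFC3), 0.08 ± 0.05 (RFC4) and 0.14 ± 0.05 (RFC5). Of the 46 genes PCNA had the highest level per kilobase of exon, in CPM per kilobase 198 in PIG-LONA and 179 in PIG-EMPTY cells, while the loader subunits lay between 12.9 (RFC1) and 30.4 (RFC2) in PIG-LONA cells and between 12.0 and 27.0 in PIG-EMPTY cells. Neither passed without PIG-EMPTY replicate 1, where PCNA was at 0.16 and RFC2 at 0.17, nor without PIG-EMPTY replicate 2, where they were at 0.13 and 0.17.

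The single-strand binding genes RPA1, RPA2 and RPA3, whose products coat unwound DNA, showed no call in any fit that was run, with 0 also at an unadjusted p under 0.05, by DESeq2 and by limma-voom. RPA1, the large subunit, had 243 and 239.8 CPM in the PIG-LONA libraries, against 237 and 232 CPM in the PIG-EMPTY libraries, a log2 fold change of 0.04 ± 0.04. RPA2, the middle subunit, had 92.7 and 89.0 CPM in the PIG-LONA libraries, against 90.3 and 86.9 CPM in the PIG-EMPTY libraries, with overlapping groups and a log2 fold change of 0.04 ± 0.04. RPA3, the small subunit, averaged 34.1 ± 3.06 CPM in PIG-LONA cells and 34.1 ± 1.18 CPM in PIG-EMPTY cells (SD, n = 2 each) and its fitted value changed sign between fits. Of the pair that finishes lagging-strand fragments, the flap nuclease FEN1 had 153 and 151 CPM in the PIG-LONA libraries, against 149 and 151 CPM in the PIG-EMPTY libraries, a log2 fold change of 0.02 ± 0.04 with overlapping groups (edgeR adjusted p = 0.864). LIG1, the ligase that seals them, had 80.2 and 80.4 CPM in the PIG-LONA libraries, against 72.9 and 73.0 CPM in the PIG-EMPTY libraries, without overlap and with a log2 fold change of 0.14 ± 0.04 that did not pass (edgeR adjusted p = 0.0649). For this pair 0 passed, 1 was higher at an unadjusted p under 0.05, and DESeq2 and limma-voom each called 0.

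Nucleotide supply genes formed the largest share of the summed level. They had 1024 and 996 CPM in the PIG-LONA libraries, against 938 and 921 CPM in the PIG-EMPTY libraries. Of these genes 2 of 5 rose, beside 2.93% of all tested genes. RRM2, the small subunit of ribonucleotide reductase, whose level limits the enzyme outside S phase (chromosome 2, 10120698 to 10131419), had 231 and 229.6 CPM in the PIG-LONA libraries, against 195 and 191 CPM in the PIG-EMPTY libraries. The gap between the groups exceeded that between replicates, the log2 fold change was 0.26 ± 0.04 (edgeR adjusted p = 0.000142) and it lay between 0.24 and 0.27 with each library left out. RRM2 passed in all 17 other fits, and the highest adjusted p among them was 0.00927. The large subunit RRM1, whose protein is more stable through the cycle, was at 0.07 ± 0.04 (edgeR adjusted p = 0.332). TYMS, thymidylate synthase (chromosome 18, 657604 to 673578), had 263 and 250.2 CPM in the PIG-LONA libraries, against 237 and 232 CPM in the PIG-EMPTY libraries, a log2 fold change of 0.13 ± 0.04 (edgeR adjusted p = 0.0442). TYMS was lost without either PIG-EMPTY library, in DESeq2, with upper-quartile scaling or library totals and with the chromosome 6 shift removed (edgeR adjusted p = 0.0503), and its log2 fold change with each library left out was 0.09 to 0.17. Of the exon bases of TYMS, 39.2% are shared with ENOSF1 on the opposite strand, and ENOSF1 itself was at 0.02 ± 0.04. The salvage kinase gene TK1 was at 0.05 ± 0.04 and the dUTPase gene DUT at 0.05 ± 0.04, both with overlapping groups.

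**Figure D3:**
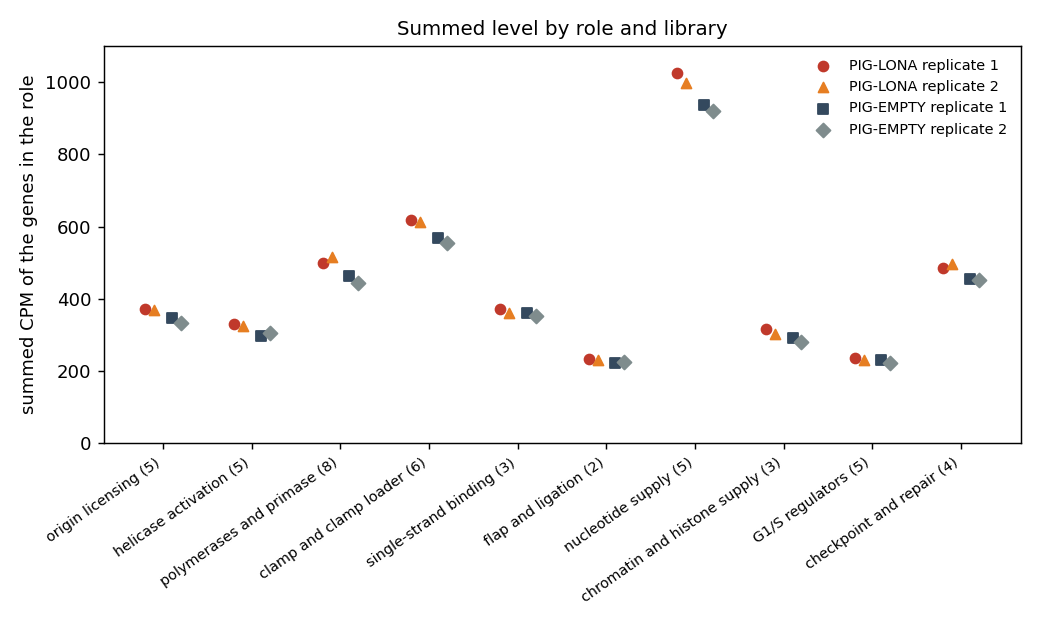
Summed CPM of the genes in each role in each library, with the number of genes in parentheses and 1 point per library. Nucleotide supply genes have the highest sums, 1024 and 996 CPM in PIG-LONA against 938 and 921 CPM in PIG-EMPTY, and the sums of the single-strand binding genes and the G1/S regulators differ least in percent between groups.

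Of the 3 genes that serve new chromatin, CHAF1B rose, beside 2.93% of all tested genes. CHAF1B encodes a subunit of chromatin assembly factor 1, which places histones behind the fork (chromosome 21, 36385378 to 36419015). It had 29.1 and 29.1 CPM in the PIG-LONA libraries, against 24.2 and 23.3 CPM in the PIG-EMPTY libraries. The log2 fold change was 0.29 ± 0.06 (edgeR adjusted p = 0.00486) and was 0.27 to 0.32 with each library left out, and it did not pass without PIG-EMPTY replicate 2 (edgeR adjusted p = 0.0889). The larger subunit CHAF1A was at 0.05 ± 0.04 with overlapping groups. SLBP, which binds the stem-loop of replication-dependent histone mRNAs, was at 0.13 ± 0.04 (edgeR adjusted p = 0.0609).

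Of the 5 regulators of the G1/S passage E2F2 rose, beside 2.93% of all tested genes, and the median log2 fold change of the 5 was 0.04. E2F2, an activating E2F factor (chromosome 1, 23506430 to 23531220), had 11.4 and 11.4 CPM in the PIG-LONA libraries, against 8.70 and 9.24 CPM in the PIG-EMPTY libraries, the lowest of the 46 genes per kilobase of exon (in CPM per kilobase, 2.08 in PIG-LONA and 1.64 in PIG-EMPTY cells). The groups did not overlap and the log2 fold change was 0.34 ± 0.09 (edgeR adjusted p = 0.0324), with the largest standard error of the 46 genes, and it did not pass without either PIG-EMPTY library, with 0.30 to 0.39 over the fits that left out a library. E2F1, the factor most often linked to these promoters, was at 0.04 ± 0.05 with overlapping groups. CCNE1, a cyclin that activates CDK2 before S phase, had 38.0 and 35.1 CPM in the PIG-LONA libraries, against 39.5 and 36.3 CPM in the PIG-EMPTY libraries, a log2 fold change of -0.06 ± 0.06 (edgeR adjusted p = 0.689) whose sign changed without PIG-EMPTY replicate 1 or PIG-LONA replicate 2. CCNE2 was at 0.06 ± 0.05 and the phosphatase gene CDC25A at 0.04 ± 0.04. CCNE2 shares 37.0% of its exon bases with INTS8 on the opposite strand.

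Among checkpoint and repair genes 2 of 4 rose, beside 2.93% of all tested genes. MSH6, which recognises mismatches left by the polymerases (chromosome 2, 47695530 to 47810101), had 112 and 116 CPM in the PIG-LONA libraries, against 100.2 and 96.6 CPM in the PIG-EMPTY libraries. The groups did not overlap and the log2 fold change was 0.21 ± 0.04 (edgeR adjusted p = 0.00296) and was 0.19 to 0.24 with each library left out, and it did not pass without PIG-EMPTY replicate 2 (edgeR adjusted p = 0.134). It shares 16.2% of its exon bases with FBXO11 on the opposite strand, which was at 0.02 ± 0.05. UNG, the uracil glycosylase (chromosome 12, 109097574 to 109110992), had 115 and 112 CPM in the PIG-LONA libraries, against 106 and 99.3 CPM in the PIG-EMPTY libraries, a log2 fold change of 0.15 ± 0.04 (edgeR adjusted p = 0.0401). It did not pass without either PIG-EMPTY library, and its log2 fold change with each library left out was 0.11 to 0.20. CLSPN, the fork adaptor of the checkpoint kinase CHEK1, was at 0.08 ± 0.04 and the repair gene BRCA1 at 0.04 ± 0.04.

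The rest of the pathway was read from lists of genes outside the 46. The counts below, where no other fit is named, stand beside 2.93% of all tested genes higher and 3.51% lower. By DESeq2 1.38% of all tested genes were higher, and by limma-voom 2.85%. At an unadjusted p under 0.05 the shares were 9.23% higher and 9.43% lower. Of 10 MCM genes 5 rose and 0 fell (0 lower by DESeq2, by limma-voom and at an unadjusted p under 0.05), with a median log2 fold change of 0.15, from 0.04 (MCMBP) to 0.33 (MCM3, on chromosome 6). Those that rose were MCM2 (0.16 ± 0.04), MCM3 (0.33 ± 0.04), MCM4 (0.16 ± 0.03), MCM6 (0.16 ± 0.04) and MCM7 (0.15 ± 0.03), subunits of the helicase ring, while MCM5 (0.12 ± 0.04), MCM8, MCM9, MCM10 and MCMBP did not pass. Of 47 other replication genes 10 rose and 0 fell by the same tests, with a median of 0.11. CHTF18, a subunit of an alternative clamp loader, had 115 and 110 CPM in the PIG-LONA libraries, against 95.3 and 86.4 CPM in the PIG-EMPTY libraries (0.31 ± 0.05, edgeR adjusted p = 0.000265). ORC3, an origin complex subunit, was at 0.35 ± 0.06 and MMS22L, a fork repair gene, at 0.26 ± 0.05, both on chromosome 6. The count of 10 was 5 by DESeq2. For the other replication genes and the MCM genes alike, the count fell when either PIG-EMPTY library was left out. It rose when PIG-LONA replicate 1 was left out. The count of higher genes over all tested genes moved in the same way. Of 16 S phase checkpoint genes, the helicase gene BRIP1 (0.28 ± 0.06) and FANCI (0.15 ± 0.04) rose and 0 fell by any of these tests. The count of checkpoint genes that rose was 1 by DESeq2. It was also lower when either PIG-EMPTY library or PIG-LONA replicate 2 was left out. Of 25 other nucleotide genes, from purine and pyrimidine synthesis to the dNTP hydrolase SAMHD1, 0 passed in either direction, 5 were higher and 0 lower at an unadjusted p under 0.05, and DESeq2 and limma-voom called 0. Without PIG-LONA replicate 1 some of them passed as higher, as did more of all tested genes than with all libraries.

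**Figure D4:**
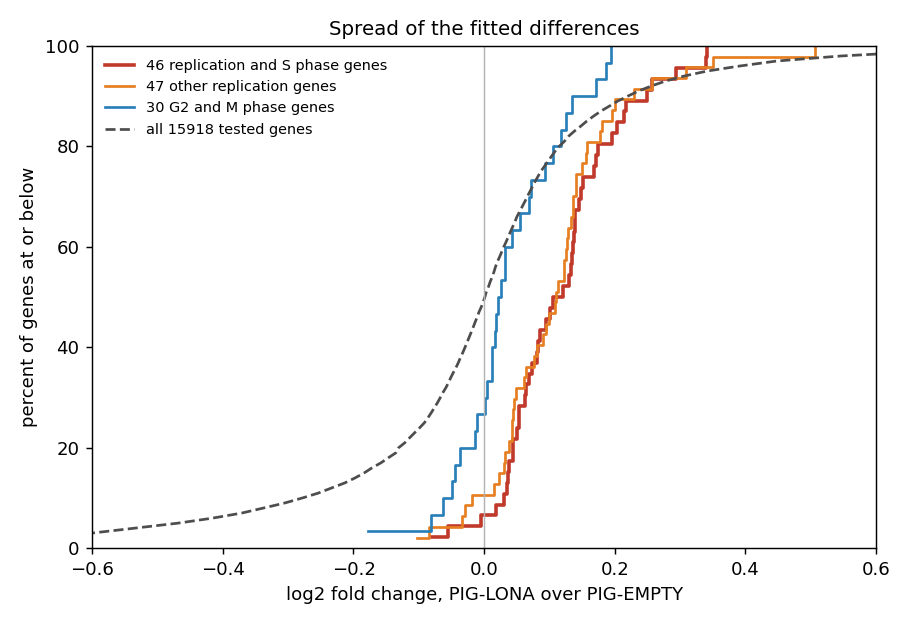
Cumulative share of genes (percent) against the log2 fold change of PIG-LONA over PIG-EMPTY, for the 46 genes, 47 other replication genes, 30 G2 and M phase genes and all 15918 tested genes. The medians are 0.11, 0.11, 0.02 and 0.00106 in that order, and the curve of the 46 genes spans -0.08 to 0.34.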

How the data were processed

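Per the labels' protocols, directional libraries were made from polyadenylated RNA of 4 sorted OCI-AML3 cultures. The authors deposited raw counts, 1 column per library and 1 row per Ensembl ID. FastQC 0.11.4, STAR 2.5, HTSeq and hg38 are named in the submitters' processing notes. Whether HTSeq counted by strand, and on which gene models, is not stated there, so genes that share exons with an opposite-strand gene are uncertain. Sharing on the same strand, which no strand setting separates, was largest for POLA2 (35.1% of exon bases, with AP000944.2) and RRM2 (20.2%, with AC007240.1). These partners held 8 and 0 counts in total, and the effect on POLA2 and RRM2 was not tested. Symbols were found for 60402 of 67062 rows, and rows without one held 0.0723% of counts. Positions, exon lengths and GC content came from GENCODE release 29 on GRCh38, the assembly of hg38, and promoters from RefSeq.

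Genes were filtered with filterByExpr (minimum count 10, minimum total 15), scaled by TMM and tested with edgeR 4.0.16 in R 4.3.3 (glmQLFit with the legacy form off, glmQLFTest, group as the only term, two-sided, Benjamini-Hochberg adjustment over 15918 genes, threshold 0.05). The standard error is the log2 fold change divided by the square root of F. Alternatives included DESeq2 1.42.0 and limma 3.58.1. Where a library was left out, the lone library of its group was assumed to vary like those of the other group. With 2 transductions of 1 line per group, p-values rest on the spread between these cultures. The spread used for a gene is drawn in part from all tested genes, so its own replicates only partly set its standard error. Replicates differed by more than counting noise (chi-square per gene 4.67 for PIG-LONA, 1.76 for PIG-EMPTY), and the biological coefficient of variation was 2.95%. On simulated counts for this comparison (200 changed genes, 15650 tested) the test found 38% of 1.2-fold, 72% of 1.5-fold, 83.7% of 2-fold and 97.9% of 4-fold changes, with 2 false calls among 144. The simulation gave both groups the same spread and held no change under 1.2-fold. It therefore cannot tell how often the smaller differences reported here would be found.

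The members and lists were chosen with earlier results of these data known. Values per library are given for members past the threshold, members on chromosome 6, the 2 lowest log2 fold changes and up to 2 members, by level, of a role without calls. Outside the members, the MCM genes and CDKN1A were named in any case, and each other list gives at most 3 further genes that passed, taken in order of p.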

Additional observations from a re-analysis of the deposited data

How the results depend on the processing

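The 46 genes had 0 calls lower in PIG-LONA in every one of the 17 alternative fits, and their median log2 fold change lay between 0.10 and 0.12 in all of them. The count of 14 higher genes was 5 with the DESeq2 Wald test, 4 without a filter on low counts, 4 at adjusted p under 0.01 and 20 after a GC and length correction, of which 14 were the genes of the report. It ran from 2 to 19 when a library was left out, and was 11 without chromosome 6 genes and 11 with that chromosome's shift removed. Without the filter 29600 genes entered the adjustment. The count of 1025 over all genes was 473 with DESeq2, 334 without the filter, 528 at adjusted p under 0.01 and 660 without chromosome 6 genes, and ran from 466 to 2331 when a library was left out. Of these 1025, 467 were higher and 558 lower, against 223 higher and 530 lower with the chromosome 6 shift removed. Of the 467, 226 lie on chromosome 6. The counts at adjusted p under 0.01 come from the same fit with a stricter threshold. The cause of the other changes was not tested.

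With the replicate number as a block, 16 of the 46 genes were higher, the 14 of the report among them, and 1101 genes in all. Same-numbered libraries did not deviate together (correlation 0.0288 across genes). With 2 libraries per group this cannot show whether same-numbered transductions were done side by side.

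Sign changes were seen in members that did not pass in any of the fits concerned. RPA3 was at 0.0023 without the filter, 0.0011 when chromosome 6 genes were dropped and 0.0049 with that GC and length correction, and ran from -0.0931 to 0.0906 over the fits that left out a library (0.0342 for PIG-EMPTY replicate 2, 0.0906 for PIG-LONA replicate 2). Over the same fits CCNE1 ran from -0.1132 to 0.0071 (0.0063 for PIG-EMPTY replicate 1), E2F1 from -0.0089 to 0.0920, BRCA1 from -0.0134 to 0.0969 and POLA2 from -0.1835 to 0.0375. Over the other member values, 689 kept direction and side of the threshold, 60 no longer passed and 21 newly passed. The lowest count of any of the 46 genes was 259, and 2 libraries per group limit the precision.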

Other observations

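Of 30 G2 and M phase genes, the spindle checkpoint kinase gene TTK rose (89.4 and 94.0 CPM in the PIG-LONA libraries, against 80.9 and 80.5 CPM in the PIG-EMPTY libraries; log2 fold change 0.19 ± 0.04, edgeR adjusted p = 0.0114) and 0 fell, by DESeq2 and limma-voom as well and at an unadjusted p under 0.05. DESeq2 called 0 of the 30 higher, and 7 were higher at an unadjusted p under 0.05. Over all tested genes 2.93% rose and 3.51% fell, and 9.23% were higher at an unadjusted p under 0.05. TTK lies on chromosome 6, and with that chromosome's shift removed 0 of the 30 rose. TOP2A stands in both this list and that of the other replication genes. The count of the 30 that rose was lower when either PIG-EMPTY library was left out and higher when either PIG-LONA library was. The count of higher genes over all tested genes moved in the same way. The median log2 fold change of the list was 0.02, and the difference from the 46 replication genes was not tested.

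Of 18 tested cyclin, CDK and inhibitor genes 3 rose and 1 fell, beside 2.93% higher and 3.51% lower over all tested genes. CDKN1A, which encodes the CDK inhibitor p21, had 30.1 and 29.96 CPM in the PIG-LONA libraries, against 41.9 and 41.3 CPM in the PIG-EMPTY libraries (-0.47 ± 0.05, edgeR adjusted p = 1.67e-05), although chromosome 6 genes as a whole were higher. With the chromosome 6 shift removed 2 rose and 2 fell. The genes that rose were CDK6 (0.17 ± 0.04), the inhibitor gene CDKN2C (0.18 ± 0.04) and FBXO5, an inhibitor of the anaphase-promoting complex on chromosome 6 (0.31 ± 0.05). Of 15 E2F and pocket protein genes E2F3, also on chromosome 6, rose (0.21 ± 0.04) and 0 fell, with 1 lower at an unadjusted p under 0.05 and 0 lower by DESeq2 and limma-voom. With the chromosome 6 shift removed 0 of the 15 rose. Without PIG-LONA replicate 1 more of them rose, as was so over all tested genes.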
